A study of Mus musculus with 5 samples.

Results

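The sarcomeric myosin heavy chains were followed in muscle progenitor lineage cells of the fetal mouse limb. The members are Myh3, Myh8, Myh7, Myh6, Myh2, Myh1 and Myh4, taken by gene symbol. All 7 have a row among 25873 named genes, and 2 of the 7, Myh3 and Myh8, passed the filter of a mean of at least 1 RPKM (reads divided by gene length in kilobases and by the library total) that 11543 genes passed. The cells came from C57BL/6J fetuses at E16.5. They were tdTomato-positive, lineage-negative mononuclear cells sorted from dissociated limb muscle, so multinucleated fibres were not the sorted population. Notch2 cKO fetuses (2 libraries) carried Pax7-CreER, Notch2f/f and Rosa-tdTomato. Notch1 cKO fetuses (1 library) carried Pax7-CreER, Notch1f/f and Rosa-tdTomato. WT fetuses (2 libraries) carried Pax7-CreER and Rosa-tdTomato without a floxed Notch allele. Tamoxifen was given by mouth to every pregnant dam over 2 days beginning at E12.5 (240 mg/kg), and it activates the recombinase made from the Pax7 locus. Alleles and colour therefore changed in Pax7-expressing cells and were inherited by their descendants, while other cells of the fetus kept their Notch receptors. The labels do not say whether libraries came from separate fetuses or litters, so p-values cannot be read as measuring the spread between animals. In the main model fit, the spread set against a gene's difference came mostly from other genes, and little from its own libraries.

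A sarcomeric myosin heavy chain is the motor protein of the muscle thick filament: its head binds actin and splits ATP, and its tail packs into the filament. Mammalian skeletal muscle switches isoforms as it matures, from the embryonic (Myh3) and neonatal (Myh8) forms to the adult fast forms (Myh2 for type IIa, Myh1 for type IIx and Myh4 for type IIb fibres) or the slow form (Myh7, shared with the heart), and Myh6 is the alpha heavy chain of the heart. Dividing progenitors carry little sarcomeric myosin, and the genes are switched on as myoblasts exit the cell cycle and differentiate.

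By the GENCODE M21 annotation of GRCm38, which is the mm10 assembly, the embryonic, neonatal and adult fast genes lie in a row on the plus strand of chromosome 11: Myh3 at chr11:67078300-67102291, Myh2 at chr11:67171027-67197517, Myh1 at chr11:67200052-67224575, Myh4 at chr11:67238029-67260446 and Myh8 at chr11:67277124-67308634. The slow and cardiac genes are neighbours on the minus strand of chromosome 14, Myh6 at chr14:54941921-54966927 and Myh7 at chr14:54970684-54994626. All are protein-coding genes. The 250 bases before the RefSeq start (GRCm38.p6, plus strand) are shown for the embryonic and neonatal genes, which carried most of the signal, and for Myh4, a neighbour that was near the limit of detection. Capitals mark the matches to 5 motifs searched: the E-box CANNTG bound by MyoD-type factors, CATTCC bound by TEAD factors, TATAAA, the MEF2 site and the CArG box.
Myh3 chr11:67078050-67078299: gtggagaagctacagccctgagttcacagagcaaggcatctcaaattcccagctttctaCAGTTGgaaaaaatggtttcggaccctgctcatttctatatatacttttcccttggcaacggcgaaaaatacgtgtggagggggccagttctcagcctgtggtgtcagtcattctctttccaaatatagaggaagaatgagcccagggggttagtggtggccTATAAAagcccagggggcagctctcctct
Myh8 chr11:67276874-67277123: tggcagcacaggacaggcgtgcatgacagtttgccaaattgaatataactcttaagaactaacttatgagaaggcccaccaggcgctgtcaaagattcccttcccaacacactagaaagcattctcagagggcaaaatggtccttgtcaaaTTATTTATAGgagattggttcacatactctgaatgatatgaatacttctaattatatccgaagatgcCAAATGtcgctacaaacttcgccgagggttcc
Myh4 chr11:67237562-67237811: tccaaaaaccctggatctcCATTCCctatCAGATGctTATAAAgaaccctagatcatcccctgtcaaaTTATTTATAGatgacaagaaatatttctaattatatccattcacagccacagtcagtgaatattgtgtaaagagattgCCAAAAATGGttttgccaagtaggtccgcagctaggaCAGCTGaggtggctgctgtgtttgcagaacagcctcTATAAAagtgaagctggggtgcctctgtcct
Both strands were searched except for TATAAA, which was read on the gene's strand. The Myh3 stretch held 1 TATAAA, 23 bases before the start, and 1 CANNTG, 185 bases before it. The Myh8 stretch held no TATAAA, but 1 CANNTG at 26 bases and 1 MEF2 match at 89 bases before the start. Myh4 matched all 5 motifs, with its nearest TATAAA 25 bases and its CArG box 94 bases before the start. Among 32841 promoters of the same length, 66.2% held CANNTG, 12.6% CATTCC, 7.59% TATAAA, 2.92% a MEF2 match and 1.47% a CArG box. A match describes letters in this window, and binding was not measured.

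The deposited RPKM values give back whole reads, which implied library totals of 20740000 to 28830000 reads. All 8 muscle lineage markers stood at 1 RPKM or more in every library, led by Myog at 944 to 1737 RPKM. Notch1 stood at 2.33 RPKM in Notch1 cKO Em8, against 7.26 and 13.5 RPKM in WT (log2 fold change −1.72, limma adjusted p = 0.0443). The Notch1 call rests on 1 Notch1 cKO library, and was lost without the filter on low values and with the trend with gene length removed. Notch2 stood at 3.35 and 2.03 RPKM in Notch2 cKO, against 2.40 and 4.17 RPKM in WT, and the groups overlap. A value over the whole gene does not separate the floxed exons from the rest, so it does not check the Notch2 label. Notch2 cKO Em3 stood apart among weakly detected genes: 12.7% of named genes were listed at 0 there, against 24.5% to 31.7% in the other libraries. In the column names Notch2 cKO Em3 shares its digits with Notch1 cKO Em8, and Notch2 cKO Em4 shares its own with WT Em4, with a meaning not given in the sources used here. Those of WT Em2 are shorter by a character than those of WT Em4, and if they stand for the same string, both WT libraries share it with Notch2 cKO Em4 and none with Notch2 cKO Em3.

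Myh3, the embryonic heavy chain, had the highest level of the 7 genes in every library, and Myh8, the neonatal chain, the second highest. In the Notch2 cKO libraries Em3 and Em4, Myh3 had 17.6 and 19.5 RPKM, with 7.61 RPKM in Notch1 cKO Em8, and 6.41 and 12.1 RPKM in WT Em2 and Em4. Both Notch2 cKO libraries lay above both WT libraries and the Notch1 cKO library, and Notch1 cKO lay between the WT libraries. Those values rest on 2186, 3373, 1165, 938 and 1657 reads over a length of 5992 bases, in the same order of libraries. The widest exact Poisson 95% interval, 16.9 to 18.3 RPKM in Notch2 cKO Em3, is narrower than the gap between the WT libraries, and it covers counting error only. Among the named genes Myh3 ranked 4294 and 4110 by level in Notch2 cKO, 6340 in Notch1 cKO, and 6446 and 5259 in WT.

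**Figure D1:**
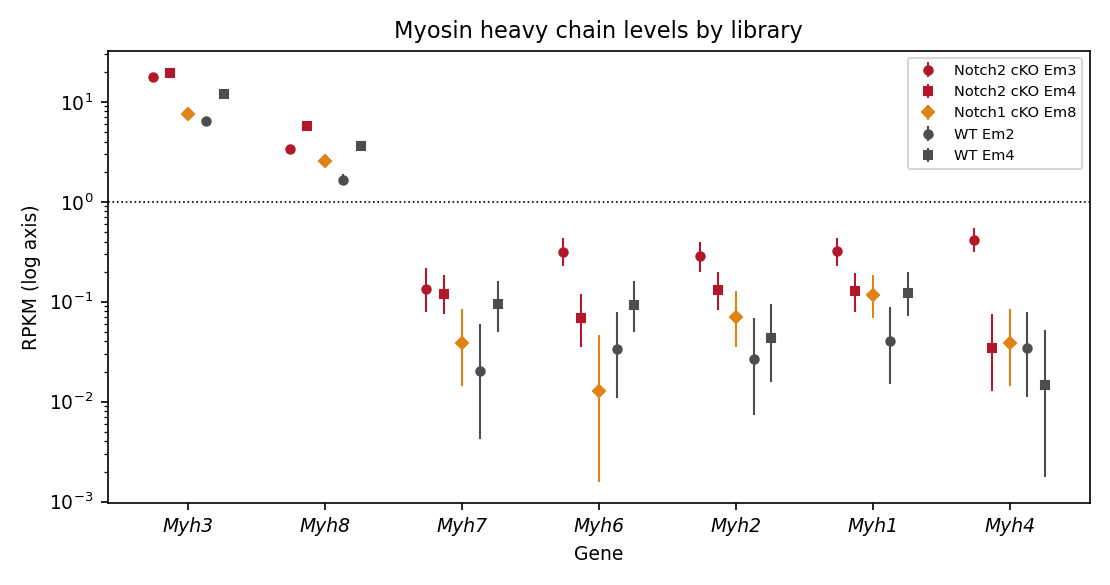
RPKM of each myosin heavy chain (log axis) in each library, with exact Poisson 95% intervals, in the order Notch2 cKO Em3 and Em4 (red), Notch1 cKO Em8 (orange), WT Em2 and Em4 (grey), and a dotted line at 1 RPKM. Myh3 and Myh8 lie above the line in all 5 libraries and the other 5 genes lie below it.

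Mean Myh3 was 18.6 ± 1.37 RPKM in Notch2 cKO and 9.26 ± 4.02 RPKM in WT (SD, n = 2 each), a ratio of means of 2.01. On the log2(RPKM + 1) scale, which understates changes of weak genes, the difference of Notch2 cKO over WT was 0.99 (SE 0.31, 95% interval 0.38 to 1.59). It did not pass the threshold of 0.05. The p of limma, a moderated linear model fitted across genes, was 0.00165 before and 0.161 after Benjamini-Hochberg adjustment over 11543 genes. The SE, the interval and the p rest mostly on spread taken from other genes, and little on that of Myh3 itself. The comparison of Notch2 cKO with WT called 62 genes in all, or 0.537% of those tested, and neither Myh3 nor Myh8 was among them. A gap between the groups with Notch2 cKO higher, which Myh3 shows, was found for 28.3% of all genes tested. Fitted without the filter on low values, the same Myh3 difference had a wider 95% interval of 0.14 to 1.84. Its limma p was then 0.0311 before and 0.730 after adjustment. The result turned on WT Em4: without that library the Myh3 difference was 1.40 with a limma adjusted p of 0.0207, and without WT Em2 it was 0.58 with a limma adjusted p of 1. Between the libraries that share digits, Myh3 had 19.5 RPKM in Notch2 cKO Em4 and 12.1 RPKM in WT Em4, with 6.41 RPKM in WT Em2 if its shorter string is the same. A fit with the digits as a term and WT Em2 read that way was chosen after seeing the data and leaves 1 residual degree of freedom. Its Myh3 difference was 1.06 (SE 0.41). This rests on Notch2 cKO Em4 as the only Notch2 cKO library, and is the same difference as without Notch2 cKO Em3.

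Notch1 cKO is 1 library, so its tests assume that it varies like the other groups and share the WT or Notch2 cKO libraries with the comparisons above. For Myh3 the difference of Notch1 cKO over WT was −0.19 on the log2(RPKM + 1) scale (SE 0.37, 95% interval −0.94 to 0.55, limma adjusted p = 1), where 0.0693% of genes tested were called. Its sign depended on 1 library, since without WT Em4 it was 0.22. The difference of Notch2 cKO over Notch1 cKO was 1.18 (SE 0.37, 95% interval 0.44 to 1.92, limma adjusted p = 0.183), where 0.485% of genes tested were called. Within the shared digits Myh3 had 17.6 RPKM in Notch2 cKO Em3 and 7.61 RPKM in Notch1 cKO Em8. Both Myh3 and Myh8 were higher in both Notch2 cKO libraries than in Notch1 cKO Em8, as were 47.7% of all genes tested.

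In the Notch2 cKO libraries Em3 and Em4, Myh8 had 3.36 and 5.74 RPKM, with 2.55 RPKM in Notch1 cKO Em8, and 1.67 and 3.57 RPKM in WT Em2 and Em4. The Notch2 cKO and WT groups overlap, because Notch2 cKO Em3 lay below WT Em4. The values rest on 429, 1017, 401, 250 and 502 reads over 6149 bases. Mean Myh8 was 4.55 ± 1.68 RPKM in Notch2 cKO and 2.62 ± 1.35 RPKM in WT (SD, n = 2 each), and the difference was 0.64 on the log2(RPKM + 1) scale (SE 0.33, 95% interval −0.01 to 1.28, limma adjusted p = 0.669). The Notch1 cKO difference over WT was 0.03 (SE 0.40, 95% interval −0.77 to 0.82, limma adjusted p = 1), and the interval holds changes of either sign. The difference of Notch2 cKO over Notch1 cKO was 0.61 (SE 0.40, 95% interval −0.18 to 1.40, limma adjusted p = 0.714).

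**Figure D2:**
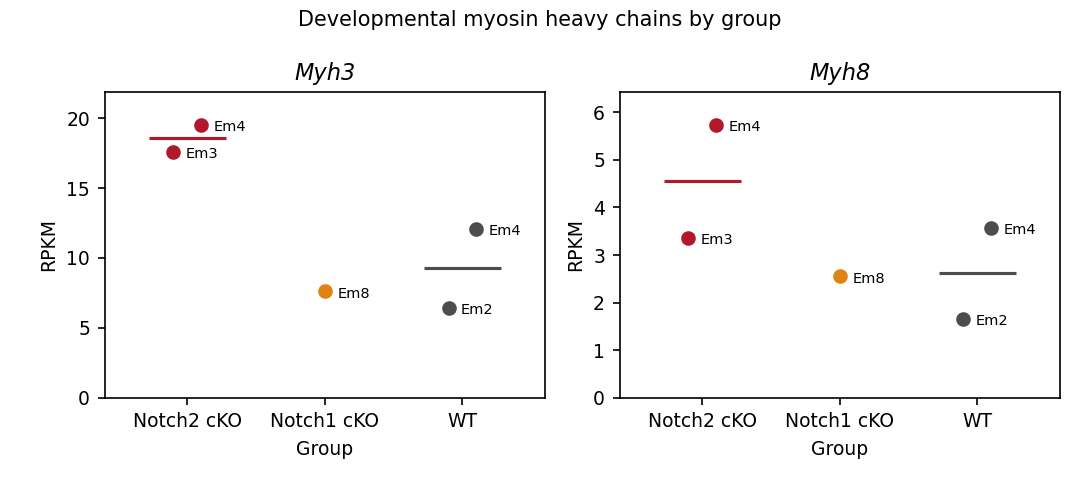
RPKM of Myh3 (left) and Myh8 (right) by group, each point a library and each bar the mean of 2 libraries. For Myh3 both Notch2 cKO points, at 17.6 and 19.5 RPKM, lie above every other point, while for Myh8 the Notch2 cKO and WT points overlap.

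The 8 muscle lineage markers summed to 2307 and 2510 RPKM in Notch2 cKO, 1493 in Notch1 cKO, and 1576 and 2023 RPKM in WT. Most of this sum was Myog, and it was highest in the Notch2 cKO libraries, as for Myh3. The markers did not move together. Myod1 too was highest in Notch2 cKO and Pax7 was not. Myf5 was lowest there, at 32.5 and 41.8 RPKM, with 44.8 RPKM in Notch1 cKO, and 54.3 and 50.4 RPKM in WT. Erythroid markers summed to 520 and 449 RPKM in Notch2 cKO, 1749 RPKM in Notch1 cKO, and 979 and 1219 RPKM in WT, lowest in Notch2 cKO and highest in Notch1 cKO, with 6 of 7 genes in the table, 5 of them at 1 RPKM or more in every library and none at 0. The part of either in the Myh3 difference was not tested. Fewer cells of a type and less RNA per cell cannot be told apart in such bulk samples. Myog, a transcription factor that drives muscle differentiation, had 1655 and 1737 RPKM in Notch2 cKO, 944 RPKM in Notch1 cKO, and 1053 and 1272 RPKM in WT. Set against it, Myh3 stood at 10.6 and 11.2 RPKM per 1000 RPKM of Myog in Notch2 cKO, 8.06 in Notch1 cKO, and 6.09 and 9.51 in WT, so the Notch2 cKO libraries stayed highest with a smaller gap. Per 1000 RPKM of Des (desmin, the muscle intermediate filament), Myh3 stood at 101 and 91.0 RPKM in Notch2 cKO, 48.3 in Notch1 cKO, and 48.8 and 52.4 in WT. Per 1000 RPKM of Myl1, an essential light chain that pairs with the heavy chain, Myh3 had 330 and 266 RPKM in Notch2 cKO, 132 in Notch1 cKO, and 148 and 311 in WT, where the Notch2 cKO and WT groups overlap. Set against Actc1, a sarcomeric actin, these groups overlap too, at 4.93 and 5.44 in Notch2 cKO and 2.16 and 5.14 in WT. Set against Ttn (titin) and the light chains Myl4 and Mylpf, both Notch2 cKO libraries stayed highest.

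Interstitial fibroblast markers summed to 205 and 325 RPKM in Notch2 cKO, 326 RPKM in Notch1 cKO, and 124 and 206 RPKM in WT. Cartilage and tendon markers summed to 153 RPKM in Notch2 cKO Em4, against 37.6 to 53.0 RPKM in the other libraries. Smooth muscle markers, with 3 of 5 at 1 RPKM or more and none at 0, summed to 614 and 630 RPKM in Notch2 cKO, 593 RPKM in Notch1 cKO, and 486 and 469 RPKM in WT, most of it Acta2, an actin. They too were highest in Notch2 cKO, while Myh11, the smooth muscle heavy chain, was at most 0.183 RPKM, and their part in the Myh3 difference was not tested. The 5 Schwann markers, none at 0 in any library, summed to 4.55 and 6.59 RPKM in Notch2 cKO, 3.13 RPKM in Notch1 cKO, and 2.91 and 3.58 RPKM in WT. The endothelial and haematopoietic lists reached sums of at most 6.72 and 12.03 RPKM in any library. Of 9 cardiomyocyte markers, 1 (Tnni3, cardiac troponin I) reached 1 RPKM in any library and Nkx2-5, a factor that defines heart muscle, was at 0 in all 5.

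Myh7, the slow chain shared with the heart, had 17 and 21 reads in Notch2 cKO Em3 and Em4, 6 reads in Notch1 cKO Em8, and 3 and 13 reads in WT Em2 and Em4. Its level was 0.135 and 0.120 RPKM in Notch2 cKO, 0.0388 RPKM in Notch1 cKO, and 0.0203 and 0.0940 RPKM in WT. The Poisson intervals of Notch2 cKO Em3 (0.0789 to 0.217 RPKM) and WT Em4 (0.0501 to 0.161 RPKM) overlap. Myh6, the alpha chain of the heart, had 40 and 12 reads in Notch2 cKO, 2 reads in Notch1 cKO, and 5 and 13 reads in WT. These are 0.317 and 0.0685 RPKM in Notch2 cKO, 0.0129 RPKM in Notch1 cKO, and 0.0337 and 0.0936 RPKM in WT, so Notch2 cKO Em3 alone lay above the WT libraries. The Myh7 and Myh6 genes share sequence with each other and with the antisense gene Mhrt, which the table lists at 0.233 RPKM in Notch2 cKO Em3 and at 0 elsewhere. The library kit does not mark strand, so reads of a gene and its antisense partner cannot be told apart.

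Both slow and cardiac genes carry a microRNA in an intron on their own strand, and so does Myh7b, another sarcomeric heavy chain gene. Myh3 also holds such a microRNA, miR-6923-5p, which is not shown. Mature RefSeq sequences of those in Myh6, Myh7 and Myh7b are shown because they form a family, with the seed (bases 2 to 8) in capitals.
miR-208a-3p (Myh6 intron): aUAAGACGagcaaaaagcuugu
miR-208b-3p (Myh7 intron): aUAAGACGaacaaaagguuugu
miR-499-5p (Myh7b intron): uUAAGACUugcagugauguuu
The Myh6 and Myh7 microRNAs share the seed UAAGACG, and that of Myh7b has UAAGACU. The table lists Mir208a, Mir208b and Mir499 at 0 in all 5 libraries, where Myh7 and Myh6 were themselves near the limit of detection. Whether such libraries can hold mature microRNAs was not tested, so these values do not show that they were absent. Myh7b had 0.321 and 0.135 RPKM in Notch2 cKO, 0.216 RPKM in Notch1 cKO, and 0.0864 and 0.177 RPKM in WT.

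Among the adult fast chains, Myh2 had 36 and 23 reads in Notch2 cKO Em3 and Em4, 11 reads in Notch1 cKO Em8, and 4 and 6 reads in WT Em2 and Em4. Its level was 0.285 and 0.131 RPKM in Notch2 cKO, 0.0708 RPKM in Notch1 cKO, and 0.0269 and 0.0432 RPKM in WT. Of the 5 weak members Myh2 had the smallest p for Notch2 cKO over WT when recovered reads entered limma voom, with a log2 fold change of 2.33 (SE 0.93, limma adjusted p = 0.615 over 14478 genes), and it was not called. Myh1 had 40 and 22 reads in Notch2 cKO, 18 reads in Notch1 cKO, and 6 and 17 reads in WT. This came to 0.320 and 0.127 RPKM in Notch2 cKO, 0.117 RPKM in Notch1 cKO, and 0.0408 and 0.124 RPKM in WT. All libraries but Notch2 cKO Em3 lay at or under 0.127 RPKM for Myh1. Myh4 had 52 and 6 reads in Notch2 cKO, 6 reads in Notch1 cKO, and 5 and 2 reads in WT. The corresponding levels were 0.417 and 0.0346 RPKM in Notch2 cKO, 0.0390 RPKM in Notch1 cKO, and 0.0340 and 0.0145 RPKM in WT. Notch2 cKO Em3 held 73.2% of all Myh4 reads, and its replicate Em4 lay at the level of the other libraries.

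All 5 weak members were highest in Notch2 cKO Em3. Their summed level was 1.48 RPKM there and 0.481 RPKM in Notch2 cKO Em4, 0.279 RPKM in Notch1 cKO, and 0.156 and 0.369 RPKM in WT. Notch2 cKO Em3 was also the highest library for 67.2% of the 11897 named genes with a mean under 1 RPKM, and for 65.8% of the 1385 such genes of 4000 to 8000 bases, the length class of the heavy chains. The median RPKM of that length class was 0.242 and 0.120 in Notch2 cKO, 0.104 in Notch1 cKO, and 0.0747 and 0.107 in WT. In Notch2 cKO Em3 all weak members but Myh7 lay above this median, and in Notch2 cKO Em4 Myh7, Myh2 and Myh1 lay slightly above it while Myh6 and Myh4 lay below. In Notch1 cKO and in WT Em4 Myh1 was the weak member above the median, and in WT Em2 all 5 lay below it. At this depth 0 reads would allow up to 0.0173 to 0.0241 RPKM for a gene of 6000 bases, counting 3 reads.

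**Figure D3:**
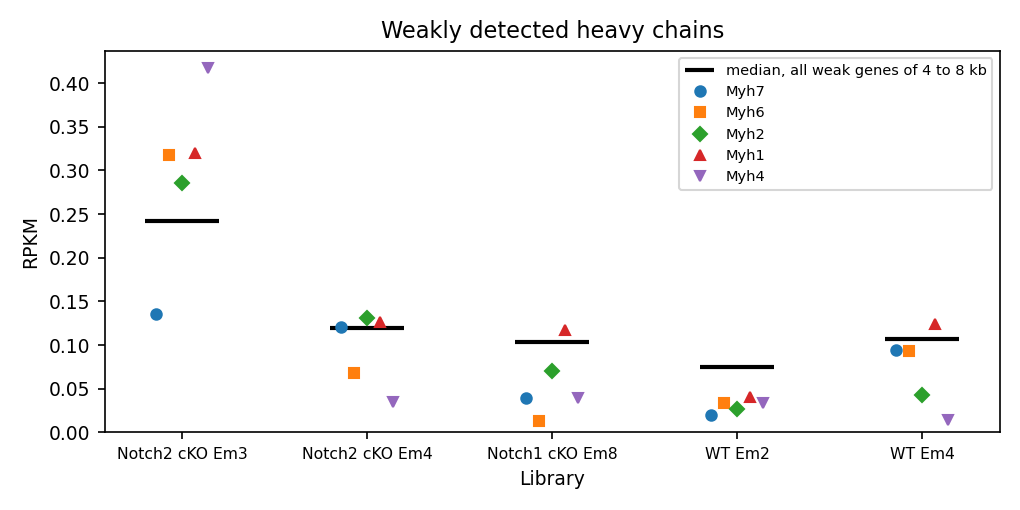
RPKM of the 5 weakly detected heavy chains in each library (coloured points) and the median of all genes of 4000 to 8000 bases averaging under 1 RPKM (black bars). Both the points and the bar are highest in Notch2 cKO Em3, where the median of the length class is 0.242 RPKM.

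Reads of the heavy chains can be shared between genes, because their coding sequences are alike. Of all 50-base words in the GENCODE transcript of Myh3, 4.81% also occur in another gene, against 21.4% for Myh8, 28.3% for Myh7, 22.6% for Myh6, 28.9% for Myh2, 32.1% for Myh1 and 18.9% for Myh4. For 100-base words the shares were 1.15% for Myh3, 6.61% for Myh8, and 3.85% to 14.7% for the other 5 genes. The way in which reads matching several genes were counted was not given in the sources used here. The levels of the weak chains, whose reads are few beside those of Myh3 and Myh8, are therefore uncertain. Myh3 is the member least touched by shared words.

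The mix of isoforms was much alike in the libraries. Myh3 made up 78.4% and 75.8% of the summed RPKM of the 7 genes in Notch2 cKO, 72.9% in Notch1 cKO, and 77.9% and 75.4% in WT. Myh8 made up 15% and 22.3% in Notch2 cKO, 24.4% in Notch1 cKO, and 20.2% and 22.3% in WT. The developmental pair together held 93.4% in Notch2 cKO Em3 and 97.3% to 98.1% in the other 4 libraries. The adult fast chains held 4.56% and 1.14% in Notch2 cKO, 2.17% in Notch1 cKO, and 1.24% and 1.13% in WT, and Notch2 cKO Em3 is again the library set apart. The slow and cardiac pair held 2.02% and 0.733% in Notch2 cKO, 0.495% in Notch1 cKO, and 0.656% and 1.17% in WT. The sum over the 7 genes was 22.4 and 25.7 RPKM in Notch2 cKO, 10.4 RPKM in Notch1 cKO, and 8.23 and 16.0 RPKM in WT.

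**Figure D4:**
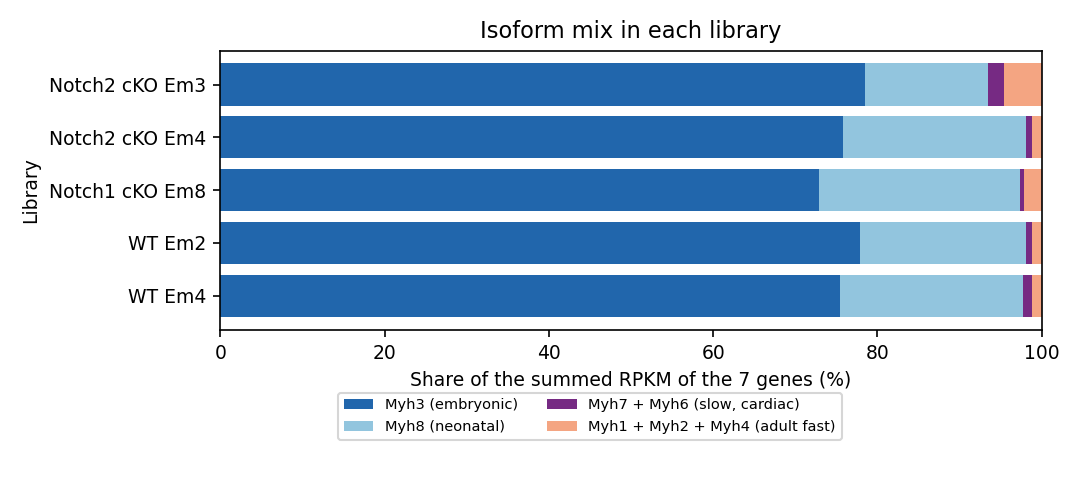
Share of the summed RPKM of the 7 genes (%) held by each isoform class, 1 bar per library. Myh3 holds 72.9% to 78.4% in every library, and the weak classes are widest in Notch2 cKO Em3.

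As a ratio, log2 of (Myh8 + 1) over (Myh3 + 1) was −2.09 in Em3 and −1.61 in Em4 for Notch2 cKO, −1.28 for Notch1 cKO, and −1.48 and −1.52 for WT. Both Notch2 cKO libraries lay below both WT libraries and Notch1 cKO lay above them. The means were −1.85 ± 0.34 in Notch2 cKO and −1.50 ± 0.03 in WT (SD, n = 2 each), with a difference of −0.35 and a two-sided exact permutation p of 0.3333, the smallest that 2 against 2 libraries allow. With a pseudocount of 0.1 the groups overlapped and the exact permutation p was 0.667. Adult fast over developmental chains gave −3.89 ± 0.64 in Notch2 cKO and −3.43 ± 0.55 in WT on the same log2 scale (SD, n = 2 each, two-sided exact permutation p = 0.667). Slow and cardiac over developmental chains gave −4.19 ± 0.39 in Notch2 cKO and −3.46 ± 0.50 in WT (SD, n = 2 each, two-sided exact permutation p = 0.3333). In those last ratios the upper terms are below the pseudocount of 1 in most libraries. The ratios therefore move mostly with the developmental chains and cannot show a change of the slow or fast ones. Without a pseudocount, slow and cardiac over developmental chains was 0.0216 and 0.00747 in Notch2 cKO, and 0.00668 and 0.0120 in WT. For adult fast chains it was 0.0488 and 0.0116 in Notch2 cKO, and 0.0126 and 0.0116 in WT. In each case the groups overlap.

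Among 5752 genes averaging 10 RPKM or more, those whose centred log2(RPKM + 1) values over the 5 libraries lay nearest to those of Myh3 were Dok7, Shisa2 and Atoh8, with root mean square differences of 0.123, 0.136 and 0.163 on the log2 scale. Dok7, an adaptor of the muscle receptor kinase MuSK, had 23.1 and 21.4 RPKM in Notch2 cKO, 8.95 RPKM in Notch1 cKO, and 6.65 and 15.4 RPKM in WT. Shisa2, a membrane protein of the Shisa family, had 21.1 and 23.5 RPKM in Notch2 cKO, 9.65 RPKM in Notch1 cKO, and 10.4 and 15.9 RPKM in WT. Atoh8, a basic helix-loop-helix factor, had 25.7 and 22.0 RPKM in Notch2 cKO, 10.3 RPKM in Notch1 cKO, and 10.7 and 16.498 RPKM in WT. Myh8 itself lay at 0.271 from Myh3. It averages 3.38 RPKM and is not among those genes, and the scale understates changes of weak genes, so its distance is not on a like footing. With 5 libraries such nearness is a description.

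The thick filament partners hold the gene of the pathway that passed the test in the most comparisons, Mybph, a myosin-binding protein. Of 10 partners 5 were tested, and 1 rose in Notch2 cKO over WT and 1 in Notch2 cKO over Notch1 cKO, in both cases Mybph. Of all genes tested, 0.537% and 0.485% were called in these comparisons, in either direction. Mybph had 17.5 and 24.3 RPKM in Notch2 cKO, 6.21 RPKM in Notch1 cKO, and 5.87 and 10.7 RPKM in WT, so both Notch2 cKO libraries lay above the rest, as for Myh3. Such a gap was found over WT for 28.3% of all genes tested, and over Notch1 cKO for 47.7%. The Mybph difference was 1.27 over WT (SE 0.31, limma adjusted p = 0.0253) and 1.58 over Notch1 cKO (SE 0.38, limma adjusted p = 0.0219). The first call was lost under 11 of 17 alternatives, among them leaving out WT Em2 (limma adjusted p = 1), Notch2 cKO Em4 (0.912) or Notch2 cKO Em3 (0.0665). The second was lost under 8 of 16, among them leaving out Notch2 cKO Em4 (limma adjusted p = 0.692). Mybpc1, the slow myosin-binding protein C and the most abundant partner, had 20.1 and 22.2 RPKM in Notch2 cKO, 25.4 RPKM in Notch1 cKO, and 19.9 and 25.6 RPKM in WT. The median difference of the 5 partners was 0.42 in Notch2 cKO over WT, −0.11 in Notch1 cKO over WT and 0.40 in Notch2 cKO over Notch1 cKO, beside 0.14, 0.01 and 0.12 for all genes tested.

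Myosin folding, assembly and turnover genes, which build and remove heavy chains, held no call among 8 of 9 tested, with a median of 0.51 in Notch2 cKO over WT. The most abundant, the chaperone Hsp90ab1, had 1982 and 1150 RPKM in Notch2 cKO, 1675 RPKM in Notch1 cKO, and 1532 and 1784 RPKM in WT. Myosin light chains stiffen and regulate the neck of the heavy chain. Their list, which also counts the light chain kinase Mylk2 (not tested), held no call among 6 of 9 tested, with a median of 0.11. Mylpf, the fast regulatory light chain, had 377 and 409 RPKM in Notch2 cKO, 348 RPKM in Notch1 cKO, and 339 and 300 RPKM in WT. Myh13 and Myh15, further sarcomeric heavy chains, had means of 0.169 and 0.0854 RPKM, and like Myh7b they were not tested. The non-muscle chains Myh10 and Myh9, which serve cell shape and division, were present beside the sarcomeric ones. Myh10 had 15.01 and 14.0 RPKM in Notch2 cKO, 17.5 RPKM in Notch1 cKO, and 12.3 and 19.8 RPKM in WT, so that Myh3 exceeded it in Notch2 cKO and lay below it in every other library. Neither of the 2 tested was called, and their median was 0.03 in Notch2 cKO over WT.

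Of the genes that accompany each fibre type, none of 7 slow and 8 tested fast companions was called in Notch2 cKO over WT, with medians of 0.35 and 0.37. In Notch2 cKO over Notch1 cKO 1 of each rose, Casq2 and Atp2a1, where 0.485% of all genes tested were called. Casq2, the slow and cardiac calsequestrin, had 10.4 and 16.9 RPKM in Notch2 cKO, 3.99 RPKM in Notch1 cKO, and 4.44 and 7.16 RPKM in WT, with a difference over Notch1 cKO of 1.52 (SE 0.39, limma adjusted p = 0.0473). Atp2a1, the fast calcium pump, had 19.4 and 33.8 RPKM in Notch2 cKO, 8.65 RPKM in Notch1 cKO, and 10.4 and 18.2 RPKM in WT, with a difference of 1.47 (SE 0.36, limma adjusted p = 0.0328). Each of these calls was lost under 12 of 16 alternatives, and leaving out Notch2 cKO Em4 gave an limma adjusted p of 1 for both. Leaving out Notch2 cKO Em3 (limma adjusted p = 0.0615) or WT Em4 (0.0547) also ended the Casq2 call, and leaving out WT Em2 (0.0548) or WT Em4 (0.0622) the Atp2a1 call. The most abundant slow companion, Tnnt1 (slow troponin T), had 950 and 793 RPKM in Notch2 cKO, 605 RPKM in Notch1 cKO, and 1007 and 765 RPKM in WT. Tnni2, fast troponin I and the most abundant fast companion, had 239 and 237 RPKM in Notch2 cKO, 304 RPKM in Notch1 cKO, and 244 and 194 RPKM in WT.

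The genes listed as embryonic and fetal companions of Myh3 held no call among 7 tested, with a median of 0.26 in Notch2 cKO over WT. They were Tnnt2, Actc1, Acta1, Ckm, Eno3, Chrng and Ncam1. Acta1, Ckm and Eno3 are also genes of adult muscle, so the median does not stand for embryonic genes alone. Actc1, the cardiac actin that fetal skeletal muscle also makes, had 3569 and 3591 RPKM in Notch2 cKO, 1995 RPKM in Notch1 cKO, and 2964 and 2352 RPKM in WT. Fibre type regulators held no call among 18 of 20 tested, with a median of 0.27, and the most abundant, the TEAD cofactor Vgll2, had 77.0 and 57.7 RPKM in Notch2 cKO, 65.5 RPKM in Notch1 cKO, and 52.5 and 56.1 RPKM in WT. The 6 myogenic factors held no call, with a median of 0.09. Myod1, which drives commitment to muscle, had 180 and 188 RPKM in Notch2 cKO, 109 RPKM in Notch1 cKO, and 135 and 167 RPKM in WT. Pax7, the progenitor factor, had 10.7 and 4.15 RPKM in Notch2 cKO, 13.4 RPKM in Notch1 cKO, and 9.90 and 12.0 RPKM in WT. No list in this or the preceding paragraphs held a call in Notch1 cKO over WT, where the medians lay between −0.20 and 0.37, and in Notch2 cKO over Notch1 cKO they lay between −0.34 and 0.52.

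The heavy chain genes are longer than most, and length moved with the fold changes. Across 11542 genes the log2 fold change was larger for longer genes, with a Spearman rho of 0.249 in Notch2 cKO over WT, 0.0940 in Notch1 cKO over WT and 0.147 in Notch2 cKO over Notch1 cKO, genes not being independent replicates. The median gene tested had 2617 bases, against 5992 for Myh3 and 6149 for Myh8. With the length trend removed, Myh3 differed by 0.86 in Notch2 cKO over WT with a limma adjusted p of 0.596, and Myh8 by 0.51 with a limma adjusted p of 0.882.

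**Figure D5:**
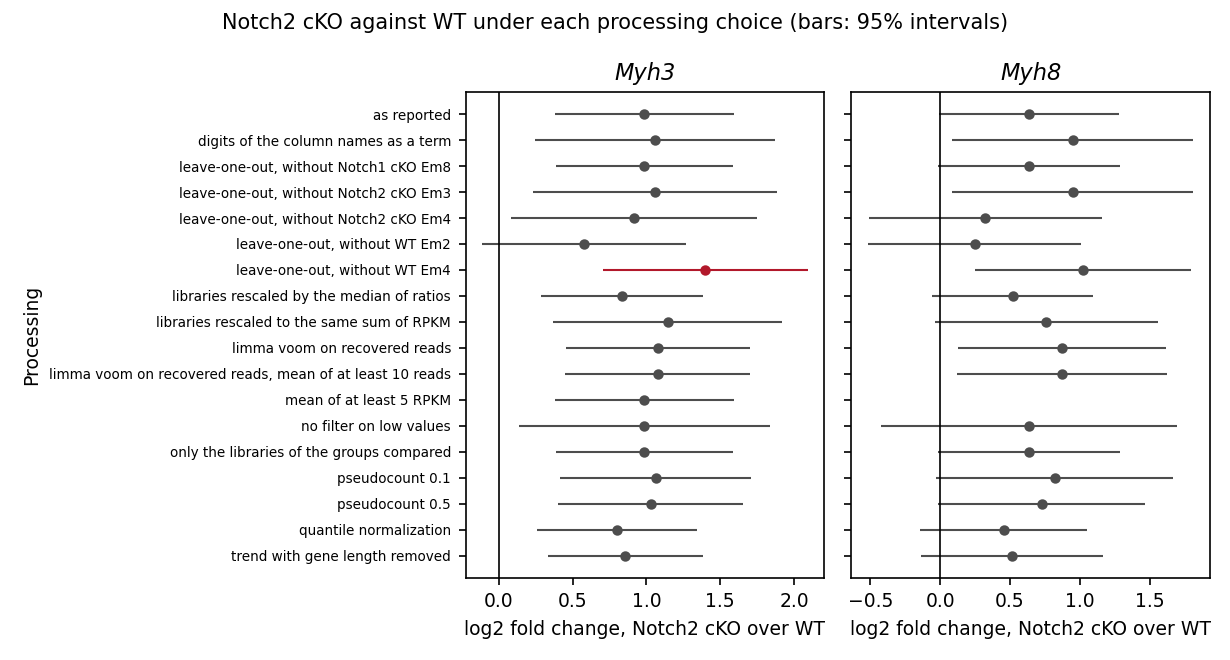
Log2 fold change of Notch2 cKO over WT for Myh3 (left) and Myh8 (right) under each processing choice, with 95% intervals, red where the adjusted p is under 0.05. All Myh3 values lie between 0.58 and 1.40 and all Myh8 values between 0.25 and 1.02, and 1 setting, without WT Em4, passes the threshold for Myh3.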

How the data were processed

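RNA of the sorted cells was made into SMART-Seq v4 libraries and read as paired ends, per the labels' protocols. The authors deposited RPKM values per gene and library. bcl2fastq 2.20.0 and the build mm10 are named in the submitters' processing notes, with aligner, counter and annotation not given in the sources used here. The 1306 rows without a gene name, of 27179, were left out. Columns were assigned to groups by name, since they carry no replicate number.

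Whole reads and gene lengths were recovered from the steps between RPKM values within a tolerance of 0.02, which gave whole reads for 11542 of 11543 genes tested and 99.3% of each implied total. Limma 3.58.1 in R 4.3.3 was fitted to log2(RPKM + 1) with 1 mean per group over all 5 libraries, for genes averaging 1 RPKM or more (2 residual and 103.8 prior degrees of freedom, Benjamini-Hochberg adjustment, threshold 0.05, two-sided). In tests on simulated reads it called more unchanged genes than its threshold allows. Recovered reads entered limma voom as an alternative, also for genes averaging 10 reads or more, and the digits of the column names entered as a term, both chosen after seeing the data. Counting intervals are exact Poisson, at 95%.

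The members, gene lists and tests were chosen with earlier results of these data known. The rule named all members, the targeted genes, the most abundant and every called gene of each list, Pax7, Myod1 and Myog, and the 3 genes nearest to Myh3. Des, Myl1, Ttn, Myl4, the other heavy chains (Myh7b, Myh9, Myh11, Myh13, Myh15), Mhrt, the microRNA genes and the marker genes named fall outside it. They were chosen after their values were seen. Other settings were pseudocounts of 0.1 and 0.5, no filter or a mean of at least 5 RPKM, 3 rescalings, removal of the length trend, the compared groups only, and each library left out. Sequences are RefSeq's on GRCm38.p6, and positions and transcripts GENCODE M21's, which may not be the authors' annotation.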

Additional observations from a re-analysis of the deposited data

How the results depend on the processing

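In Notch2 cKO over WT, Myh3 stayed higher under 17 alternatives (0.58 to 1.40 on the log2 scale when a library was left out), and 1 of them, without WT Em4, passed the threshold. Myh8 stayed higher under 16 (0.25 to 1.02 when a library was left out). A mean of at least 5 RPKM leaves no Myh8 to test. No filter, a higher filter, the compared groups only and leaving out Notch1 cKO Em8 cannot move these differences. They change only the other genes or the spread. For Myh3, whose Notch2 cKO and WT libraries do not overlap, no pseudocount and no library left out could turn the sign either. The numbers of alternatives are therefore not separate support. In Notch1 cKO over WT, Myh3 ran from −0.61 to 0.22 and Myh8 from −0.36 to 0.41 when a library was left out, and Myh8 turned to −0.0452 under quantile normalization and −0.0567 with the length trend removed. In Notch2 cKO over Notch1 cKO, Myh3 ran from 1.11 to 1.25 and Myh8 from 0.30 to 0.92 when a library was left out. The cause of these moves was not tested.

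The numbers of genes called depended more on the settings. In Notch2 cKO over WT 62 genes were called (41 higher, 21 lower), against 0 without a filter (1050 at an unadjusted p under 0.05 in limma), 33 with a mean of at least 5 RPKM, 26 with the median of ratios (14 higher, 12 lower), 28 with equal sums (26 higher, 2 lower), 4 with quantile normalization (3 higher, 1 lower), 1 with the length trend removed, 1 with voom, 0 with voom on a mean of at least 10 reads (1049 at an unadjusted p under 0.05), and 13 without WT Em2 (7 higher, 6 lower) to 278 without WT Em4 (46 higher, 232 lower), so the balance turned to lower without WT Em4. It also turned with a mean of at least 5 RPKM (14 higher, 19 lower). With the digits of the column names as a term 52 were called (43 higher, 9 lower). In Notch1 cKO over WT 8 were called, against 15 with a pseudocount of 0.1, 0 without a filter (301 at an unadjusted p under 0.05), 3 with equal sums, 1 with quantile normalization, 0 with the length trend removed (287 at an unadjusted p under 0.05), 3 and 1 with voom without and with the 10-read setting, 29 with the digits as a term, and 1 to 6 when a library was left out. In Notch2 cKO over Notch1 cKO 56 were called (32 higher, 24 lower), against 0 without a filter (983 at an unadjusted p under 0.05), 32 with the median of ratios (14 higher, 18 lower), 27 with equal sums (20 higher, 7 lower), 13 with quantile normalization (5 higher, 8 lower), 0 with the length trend removed (911 at an unadjusted p under 0.05), 14 and 8 with voom without and with the 10-read setting, and 31 with the digits as a term (19 higher, 12 lower). Here the balance also turned to lower with the compared groups only (21 higher, 36 lower), without WT Em2 (22 higher, 37 lower) and without WT Em4 (17 higher, 39 lower), and leaving out a library gave 39 to 59 calls. The median of all genes in Notch2 cKO over WT was 0.14 as deposited, −0.00045 with the median of ratios and 0.28 with equal sums, and Myh3 stood at 0.99, 0.84 and 1.14.

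The digits term, with WT Em2 set with WT Em4, gave 1.06, −0.05 and 1.11 for Myh3 and 0.95, 0.65 and 0.30 for Myh8 in the 3 comparisons, and called neither.

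With a pseudocount of 0.1 the Myh8 to Myh3 ratio differed by 0.27 in Notch1 cKO over WT, the slow and cardiac ratio by −0.10 in Notch2 cKO over WT and 0.23 in Notch2 cKO over Notch1 cKO, and the adult fast ratio by 0.45 in Notch2 cKO over WT. The cause was not tested. The Myh3 share without Myh6 in the sum moved by less than the replicate spread or, in Notch1 cKO, the counting interval. No paired analysis was possible because the columns carry no replicate number, and the digits term stands apart from such a pairing. The 2 to 52 reads per library of the weak chains limit what can be seen of them, and with 1 or 2 libraries per group the spread is borrowed across genes.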
